A study of Mus musculus with 9 samples.

Results

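Promoter accessibility was examined at 5 genes of the megakaryocyte, platelet and erythroid lineages, P2ry1, Itga2b, Ppbp, Pecam1 and Tfrc, in the mouse hematopoietic progenitor line HPC7, which grows in stem cell factor. Each gene had 1 promoter window, so 5 of the 10271 windows in the authors' deposited table are described, out of 10188 genes with a window. In the libraries labelled Snai1, the cells carried a retroviral MIG vector for ectopic wildtype Snai1 (FLAG-tagged, per the series' design text), and in those labelled EV an empty vector. The study holds 9 ATAC-seq libraries in 3 groups of 3, from HPC7 cells in every case; the third group, with the mutant mut5Snai1, was not analysed here. No label says if the 3 libraries within a group go back to independent transductions, so the authors' p-values measure a spread between libraries that may be technical. The product of Snai1 is a zinc finger protein that represses genes during epithelial-mesenchymal transition.

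ATAC-seq reads come from DNA that a transposase could reach, so the reads over a promoter measure how accessible it is, not how much the gene is transcribed. The authors' deposited table gives a log2 concentration per group, which is DiffBind's term for the normalised read density of a region on the log2 scale, with a p-value and an FDR for each window. It holds no value per library and no read totals, so group values are printed without a spread and the depth is unknown. Changes below are Snai1 minus EV on the log2 scale. The error given with a change is an implied standard error (SE), worked back from that change and the authors' p-value. Where a change is set against the windows around it, their median was subtracted and the rest tested again with the same SE; the FDR of that normal re-test, adjusted over all windows, is called the re-test FDR. Of 14 progenitor regulators 13 had a window, among them Kit, Cd34, Lmo2 and Spi1, and Erg did not. None of the markers listed for other cells did, with 0 of 6 for epithelium, 0 of 6 for fibroblasts and 0 of 6 for T and B cells. These lists are short, and the B cell gene Cd79b, not on them, had a window (6.40 in Snai1, 6.59 in EV).

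Platelets are shed by megakaryocytes, which share a progenitor with red cells. Megakaryocyte commitment is marked by the integrin chain encoded by Itga2b, and mature platelets carry receptors for ADP, thrombin, collagen and adhesive proteins together with granules of chemokines and growth factors. Erythroid cells instead import iron for haem through the transferrin receptor, encoded by Tfrc.

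The windows of P2ry1, Itga2b, Ppbp and Pecam1 were more accessible in Snai1 than in EV, and that of Tfrc was less accessible. The read count at P2ry1 was 35.5-fold higher in Snai1, and at Itga2b, Ppbp and Pecam1 it was between 1.23-fold and 1.5-fold higher. All 5 passed an FDR of 0.05 in the authors' deposited table, 4 higher and 1 lower, against 29.9% of all windows (19.6% higher and 10.3% lower). The 5 genes were chosen from this very contrast, so their levels, FDR and re-test FDR values are a description and support nothing. The start site behind each of the 5 windows was 0 bp from the annotated 5' boundary of its gene.

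**Figure D1:**
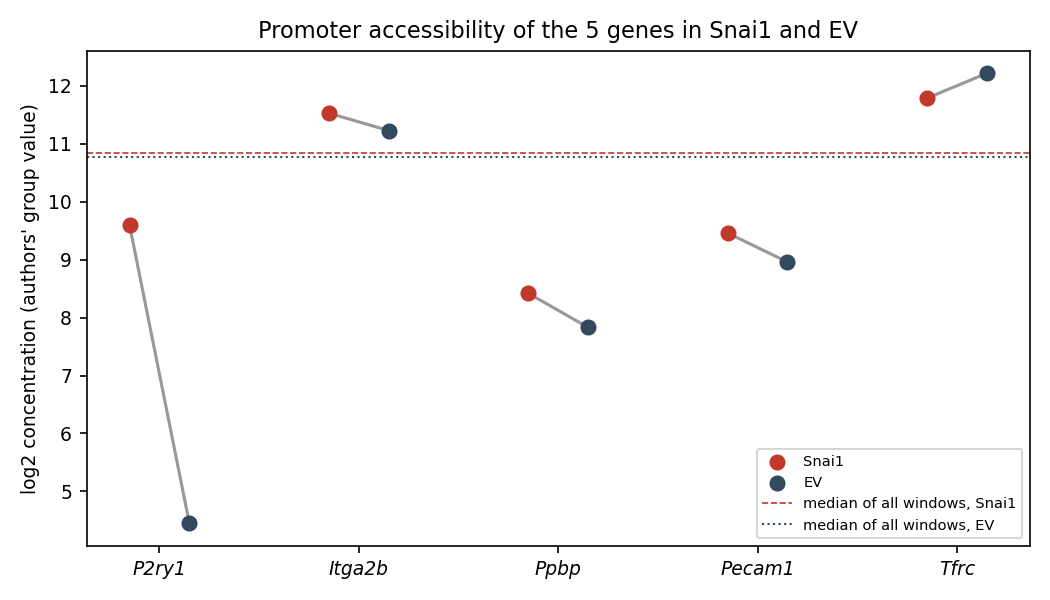
Log2 concentration (the authors' group value, y axis) of the 5 promoter windows in Snai1 (left point of each pair) and EV (right point), with the medians of all windows as lines. P2ry1 shows the widest gap, 9.60 in Snai1 against 4.45 in EV, and Tfrc is the single gene with the lower point in Snai1.

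The promoter sequences upstream of the annotated starts are shown because they differ in base composition and in the words they hold. RefSeq (GRCm38.p6, the same coordinates as mm10) gave a promoter for 4 of the 5 genes; Pecam1 is named only. Each run holds the 250 bases before the start, 5' to 3' on the strand of the gene. Capitals mark TATAAA words in Ppbp and the CACCTG word, the reverse complement of CAGGTG, in Tfrc.
P2ry1 (chr3:61002535-61002784, plus strand): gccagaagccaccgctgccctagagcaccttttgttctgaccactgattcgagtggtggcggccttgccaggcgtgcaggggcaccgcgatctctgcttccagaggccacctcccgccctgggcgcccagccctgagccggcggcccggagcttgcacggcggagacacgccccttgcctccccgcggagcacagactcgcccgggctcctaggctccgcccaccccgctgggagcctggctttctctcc
Itga2b (chr11:102469884-102470133, minus strand): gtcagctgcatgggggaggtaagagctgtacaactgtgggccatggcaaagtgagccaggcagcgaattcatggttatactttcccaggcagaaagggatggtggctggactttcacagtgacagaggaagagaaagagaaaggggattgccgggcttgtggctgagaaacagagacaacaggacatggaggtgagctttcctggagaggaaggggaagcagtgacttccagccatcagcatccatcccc
Ppbp (chr5:90768268-90768517, plus strand): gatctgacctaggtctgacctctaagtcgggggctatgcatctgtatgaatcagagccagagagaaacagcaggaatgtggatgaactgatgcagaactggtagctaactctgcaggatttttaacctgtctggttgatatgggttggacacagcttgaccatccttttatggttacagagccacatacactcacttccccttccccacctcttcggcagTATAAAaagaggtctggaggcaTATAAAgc
Tfrc (chr16:32608646-32608895, plus strand): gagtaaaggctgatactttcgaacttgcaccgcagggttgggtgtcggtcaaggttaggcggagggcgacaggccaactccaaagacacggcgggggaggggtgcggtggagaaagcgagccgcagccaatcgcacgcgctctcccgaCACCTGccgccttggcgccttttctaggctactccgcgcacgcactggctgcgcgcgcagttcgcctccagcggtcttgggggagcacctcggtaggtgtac

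Of these 4 promoters, those of P2ry1 and Tfrc were rich in CpG and those of Itga2b and Ppbp were poor in it. The P2ry1 stretch was 70.8% G or C with 20 CpG dinucleotides, and the Tfrc stretch 64.8% with 25. The Itga2b stretch was 54% G or C and the Ppbp stretch 47.2%, with 2 CpG dinucleotides each. The median of the 6641 RefSeq promoters that start at a window of the table was 60.4% and 17 CpG dinucleotides. Accessibility did not follow this split: Itga2b was far more open than P2ry1 in both groups.

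Words of known factors were searched on both strands in the same 250 bases. CAGGTG, an E-box bound by Snai1 and by other E-box factors, was found in Tfrc, 97 to 102 bases before the start on the opposite strand, and in none of P2ry1, Itga2b and Ppbp. It occurs in 17.2% of 32817 RefSeq promoters and in 13.8% of those at a window. TATAAA, the core of the TATA box, occurred in Ppbp at 25 to 30 and at 3 to 8 bases before the start, against 5.63% of promoters at a window. The GATA factor word AGATAA, found in 5.35% of promoters at a window, had no match in these 4 stretches. Likewise without a match were the ETS factor word CCGGAAG, found in 16.2%, and the Runx1 word TGTGGTT, found in 3.01%. A match describes the letters and not a bound site, and no match says only that these letters are absent from 250 bases. No searched word overlapped another.

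P2ry1 (mm10, chromosome 3, 61001785 to 61003785) encodes the Gq-coupled ADP receptor that starts shape change and aggregation of platelets. Its window had a log2 concentration of 9.60 in Snai1 and 4.45 in EV in the authors' deposited table. The change was 5.15 (implied SE 0.37, 95% interval 4.42 to 5.88, FDR 7.39e-41), the second highest of all 10271 windows. In EV the window was almost closed, at percentile 0.12 of all windows, and in Snai1 it reached percentile 17, still below the median window (10.84). Other windows so closed in EV were mostly higher in Snai1 too: 14 lay within 0.5 log2 units of P2ry1 in EV, with a median change of 2.54. Of them, 11 (78.6%) passed the FDR of the authors' deposited table in either direction, against 29.9% of all windows. None of the 14 changed by more than P2ry1. Windows chosen for a low EV value share that value with the change, so this is no test.

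The changes around P2ry1 were far smaller. The nearest windows, 502 kb before it inside Mbnl1, an RNA splicing factor gene, and 362 kb after it at Rap2b, a small GTPase gene, had changes of 0.22 and 0.08. Within 5 Mb, the 19 other windows had changes between -0.01 and 0.38 with a median of 0.18. Set against that median, the P2ry1 change was 4.97 (re-test FDR 5.06e-38).

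Other receptors of the P2 family had smaller changes. Of 15 family members, 9 had a window; the FDR of the authors' deposited table called 4 higher and 0 lower (0 lower also at an unadjusted p under 0.05), where 19.6% of all genes with a window were called higher and 10.3% lower. Against their neighbours 2 of the 4, P2ry1 and P2ry10, were called higher, where 5.34% of all genes were. P2ry1 is one of the 4 and was chosen from this contrast. P2ry10, a receptor of lymphoid and myeloid cells, rose by 0.46 (implied SE 0.11, FDR 2.6e-04), at a window 843 bp from its boundary. P2rx1, the ATP-gated channel of platelets, had 11.93 in Snai1 and 11.63 in EV, a rise of 0.30 (authors' FDR 7.56e-04) that missed the threshold against its neighbours (0.20, re-test FDR 0.0586). P2ry2, a receptor for UTP and ATP, rose by 0.29 (authors' FDR 0.0142), and fell short both against neighbours (re-test FDR 0.149) and once the median of all windows was subtracted (FDR of that re-test 0.114). P2ry12, the other ADP receptor of platelets, had no window in the table.

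**Figure D2:**
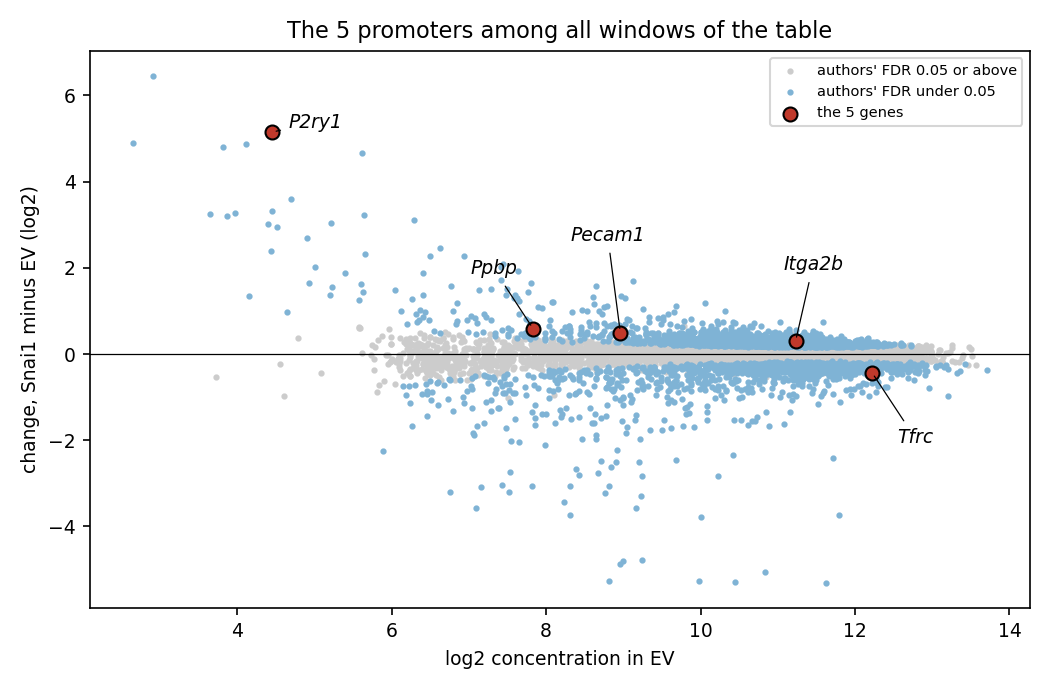
Change (Snai1 minus EV, log2, y axis) against the log2 concentration in EV (x axis) for all 10271 windows, coloured by the authors' FDR, with the 5 genes in red. P2ry1 stands at the far left with a change of 5.15, and Itga2b, Ppbp, Pecam1 and Tfrc lie within the main cloud.

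Itga2b (chromosome 11, 102469783 to 102470883) encodes integrin alpha IIb, or CD41, which pairs with the Itgb3 chain as the fibrinogen receptor and is an early mark of the megakaryocyte lineage. Its window was already open, with a log2 concentration of 11.53 in Snai1 and 11.23 in EV in the authors' deposited table, above the median window in both. The change was 0.30 (implied SE 0.07, 95% interval 0.16 to 0.44, FDR 3.27e-04), or 1.23-fold. Among 3870 windows within 0.5 log2 units of it in EV, 149 changed by more in the upward direction. Within 1 Mb there were 35 other windows with a median change of 0.04, of which 15 had a negative change. By the FDR of the authors' deposited table, 8 of them rose and 3 fell, where 19.6% of all windows were called higher and 10.3% lower. The largest of these neighbouring changes was a fall of 1.55 inside Dusp3, a phosphatase gene 485 kb away. Against the 143 windows within 5 Mb (median 0.08), the Itga2b change was 0.22 (re-test FDR 0.0215).

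The partner chain Itgb3 had 10.69 in Snai1 and 10.66 in EV in the authors' deposited table (change 0.03, implied SE 0.08, FDR 0.83), a sign that turned when the median of all windows or of its neighbours was subtracted. The interval of that change ran from -0.13 to 0.19. Because the change was under 0.1, its SE is the median of windows of like accessibility and not worked back from its own p-value. The difference between the changes of the 2 chains was not tested.

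Pecam1 (chromosome 11, 106715181 to 106716281) encodes CD31, an adhesion molecule with inhibitory motifs found on platelets, leukocytes and endothelium. In the authors' deposited table its log2 concentration was 9.46 in Snai1 and 8.96 in EV, both below the median window. The change was 0.50 (implied SE 0.11, 95% interval 0.28 to 0.72, FDR 1.14e-04), or 1.41-fold. It was larger than at any of the 27 other windows within 1 Mb, whose changes ranged from -0.78 to 0.31 with a median of 0.04. Against the 79 windows within 5 Mb (median -0.03), the change was 0.53 (re-test FDR 5.98e-05).

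A neighbouring adhesion gene moved the other way. Icam2, which encodes a ligand of leukocyte integrins and lies 333 kb from Pecam1, had 9.04 in Snai1 and 9.82 in EV in the authors' deposited table. It fell by 0.78 (implied SE 0.11, FDR 1.49e-10), at a window 5498 bp inside the gene, and by 0.81 against its own neighbours (re-test FDR 3.08e-11). The windows nearest to Pecam1, at the mast cell receptor gene Milr1 (0.13, FDR 0.654) and the polymerase subunit gene Polg2 (0.09, FDR 0.404), did not pass. Within 5 Mb of Pecam1 lies Axin2, a Wnt feedback gene, with a change of 4.87.

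Ppbp (chromosome 5, 90767518 to 90769518) encodes pro-platelet basic protein, or Cxcl7, a chemokine precursor stored in platelet alpha granules. Its log2 concentration was 8.42 in Snai1 and 7.83 in EV in the authors' deposited table, at percentiles 8.3 and 5.71 of all windows. The change was 0.59 (implied SE 0.19, 95% interval 0.23 to 0.95, FDR 0.00797), or 1.5-fold, with the second widest error of the 5 genes. Of 356 windows as closed as Ppbp in EV (within 0.5 log2 units), 28 changed by more in the upward direction. In either direction 37.9% of them passed, against 29.9% of all windows.

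Ppbp lies in a cluster of CXC chemokine genes, whose windows differed. Pf4, or platelet factor 4, starts 3.92 kb after Ppbp and was far more open, with 10.67 in Snai1 and 10.50 in EV in the authors' deposited table. Its change of 0.17 did not pass (implied SE 0.10, FDR 0.184). Cxcl2, a neutrophil chemoattractant gene 135 kb away, rose by 0.43 (implied SE 0.09, FDR 3.28e-05). Mthfd2l, a folate enzyme gene next to the cluster, rose by 0.19 (FDR 0.0108). Over the 28 windows within 5 Mb, changes ran from -0.45 to 0.43 with a median of 0.04. Against that median the Ppbp change was 0.55 (re-test FDR 0.0268). Cxcl5 had no window in the table.

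Tfrc (chromosome 16, 32607896 to 32609896) encodes transferrin receptor 1, or CD71, which erythroid and dividing cells use to take up iron. It was the most open of the 5 promoters, with a log2 concentration of 11.79 in Snai1 and 12.22 in EV in the authors' deposited table (percentiles 85.9 and 95.3). The change was -0.43 (implied SE 0.08, 95% interval -0.58 to -0.28, FDR 8.55e-07), a read count of 0.74 times that in EV.

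The windows around Tfrc fell by as much. Over all windows, the FDR of the authors' deposited table called 10.3% lower and 19.6% higher. By the same FDR, 24 of the 27 other windows within 1 Mb of Tfrc fell and 1 rose, at the ubiquitin regulator gene Ubxn7 (0.47). The nearest, at the kinase gene Tnk2 35.8 kb away, fell by 0.57 (FDR 2.38e-14). Over the 60 windows within 5 Mb the median was -0.40, with 34 windows above the Tfrc change and 23 below it. Against that median the Tfrc change was -0.03 (re-test FDR 0.869), and it was no longer called. A change of the Tfrc promoter and a shift of the whole stretch cannot be told apart for this window.

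**Figure D3:**
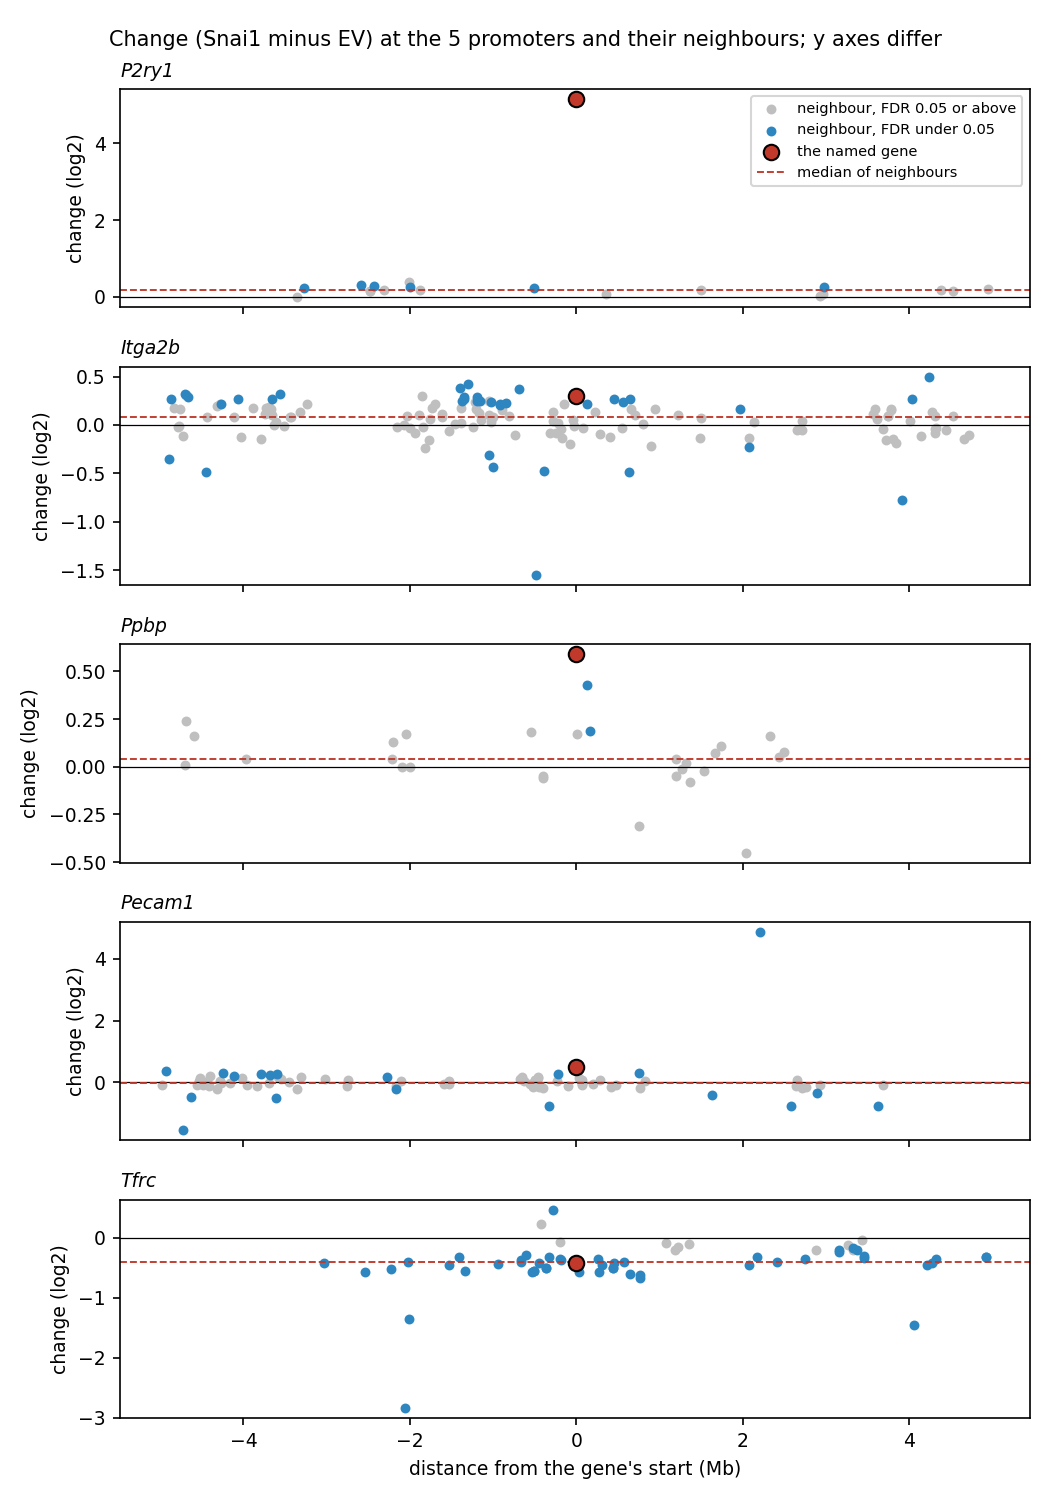
Change (Snai1 minus EV, log2, y axes of different range) at each of the 5 promoters (red) and at the windows within 5 Mb (blue below an FDR of 0.05, grey otherwise) against the distance from the start of the gene in Mb. P2ry1, Ppbp and Pecam1 stand above their nearest neighbours, whereas Tfrc lies on the median of its own (-0.40).

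Likeness was measured as the distance between windows in the plane of the log2 concentrations in Snai1 and EV, over those 2 group values. It takes no account of window width and says nothing of shared function. P2ry1 had no close match: the nearest windows were those inside Axin2 (8.98 in Snai1, 4.11 in EV, distance 0.71) and at the insulin receptor adaptor gene Irs2 (8.62 in Snai1, 3.81 in EV, distance 1.17). Only 3 windows of the table were under 6 in EV and at least 9 in Snai1, among them those of P2ry1 and Mtmr10 (10.27 in Snai1, 5.61 in EV). The other 4 genes had near twins: Stard3nl (distance 0.00) and Nlrc3 (0.02) for Itga2b, Adgre4 and Cibar1 for Ppbp, and Ephx1 and Rec8 for Pecam1. The windows most like Tfrc were those of Tfg (distance 0.02) and the interferon receptor gene Ifnar1 (0.05), and all 3 lie on chromosome 16.

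To place the 5 genes, 10 lists of genes of platelets, megakaryocytes and red cells were examined, 253 genes in all, of which 195 had a window. By the FDR of the authors' deposited table, 48 of these 195 genes rose and 17 fell, 33.3% in all, and without the 5 genes 44 of 190 rose and 16 fell (31.6%). The background over 1 window for each of all genes was 29.9% (19.6% higher, 10.3% lower), so the share was near that over all genes. The median change was 0.10, against 0.08 for all windows. The balance of directions rested on the centre: with the median of all windows subtracted, 22 were higher and 21 lower (background 21.0%, with 7.23% higher and 13.8% lower). Set against neighbours within 5 Mb, 19 were higher and 13 lower (background 13.9%, with 5.34% higher and 8.53% lower). P2ry1, Itga2b, Ppbp and Pecam1, chosen from this contrast, are counted in both the 22 and the 19. Without the 5 genes, 15 of 190 were higher and 13 lower against neighbours.

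Among platelet receptors and adhesion genes, the authors' deposited table called 7 of 23 higher and 3 lower (median 0.16), where 19.6% and 10.3% of all genes were. The re-test against neighbours called 5 and 3, where 5.34% and 8.53% of all genes were. P2ry1, Itga2b and Pecam1, chosen from this contrast, are among those higher in both. Beside P2ry1, Itga2b and Pecam1, the thrombin receptor cofactor gene F2rl2 rose by 0.35 (implied SE 0.07, FDR 2.24e-05) and kept its call against neighbours (0.25, re-test FDR 0.00734). F11r, a junction molecule that platelets carry too, had 11.27 in Snai1 and 11.78 in EV and fell by 0.51 (FDR 7.17e-09). Its stretch of chromosome 1 had a median of -0.23, against which F11r was still lower (-0.28, re-test FDR 0.00789). Chosen after their values were seen, the other two falls of the list were Treml1 (-0.84, FDR 0.00212), a protein of platelet granules, and the collagen receptor chain Itga2 (-0.51, FDR 1.16e-04). The platelet glycoprotein genes Gp1bb, Gp5 and Gp6 had no window.

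Of 36 platelet signalling genes, the authors' deposited table called 11 higher and 4 lower (median 0.12), beside 19.6% and 10.3% of all genes. The re-test against neighbours called 4 and 5, beside 5.34% and 8.53% of all genes. The kinase gene Lyn rose by 0.73 (FDR 1.44e-16), on a stretch of chromosome 4 with a median of 0.53, and was not called against it (0.20, re-test FDR 0.0969). Prkg1, the cyclic GMP-dependent kinase gene, rose by 1.62 from a nearly closed window (7.22 in Snai1, 5.60 in EV; FDR 1.47e-10). Rasgrp2, the exchange factor that activates Rap1 in platelets, fell by 0.71 (FDR 3.57e-12), and Apbb1ip, the Rap1 effector RIAM, rose by 0.41 (authors' FDR 1.1e-08). Both of those windows lay inside the gene, at 1626 and 18356 bp from its annotated boundary, and both kept their calls against neighbours.

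Granule contents and release genes were called higher at 9 of 30 and lower at 2 by the authors' deposited table (median 0.15). For all genes the shares were 19.6% and 10.3%. By the re-test against neighbours the counts were 3 and 2, with shares over all genes of 5.34% and 8.53%. A window inside Srgn, the gene of the granule proteoglycan serglycin, rose by 0.47 (FDR 3.05e-05), and one inside Pdgfb, a platelet growth factor gene, fell by 0.75 (FDR 2.96e-07). The membrane fusion machinery gene Snap23 (0.34, FDR 4.45e-04) and the granule sorting gene Vipas39 (0.21, FDR 0.00629) passed in the authors' deposited table but not against their neighbours (re-test FDR 0.212 for Snap23 and 0.283 for Vipas39). Of 15 platelet cytoskeleton genes, 1 rose, the actin-severing gene Cfl1 (0.22, FDR 0.0114), by the authors' deposited table, and 0 fell (3 higher and 0 lower at an unadjusted p under 0.05). The re-test against neighbours called 0 in either direction (0 higher and 1 lower unadjusted), Cfl1 having a re-test FDR of 0.205.

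Transcription factors of the lineages were called higher at 8 of 23 and lower at 2 by the authors' deposited table (median 0.12). Over all genes 19.6% were higher and 10.3% lower. The re-test against neighbours called 1 and 1, near the shares of 5.34% and 8.53% over all genes. Tal1, a master regulator of blood and of megakaryocytes and red cells, rose by 0.41 (FDR 7.28e-06) at a window 1385 bp inside the gene, and by 0.27 against neighbours (re-test FDR 0.0102). Bcl11a, a repressor of fetal globin, fell by 0.52 (FDR 2.53e-08), also inside the gene. Runx1 had 10.15 in Snai1 and 10.76 in EV, a fall of 0.61 on a stretch of chromosome 16 with a median of -0.58 (against it -0.03, re-test FDR 0.914). Meis1 (0.26) and a window inside Gata2 (0.25) rose in the authors' deposited table and were not called against neighbours (re-test FDR 0.0858 for Meis1 and 0.482 for Gata2). Gfi1b (0.10, FDR 0.541) and a window inside Fli1 (0.17, FDR 0.209) did not pass, and Gata1 and Nfe2 had no window.

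**Figure D4:**
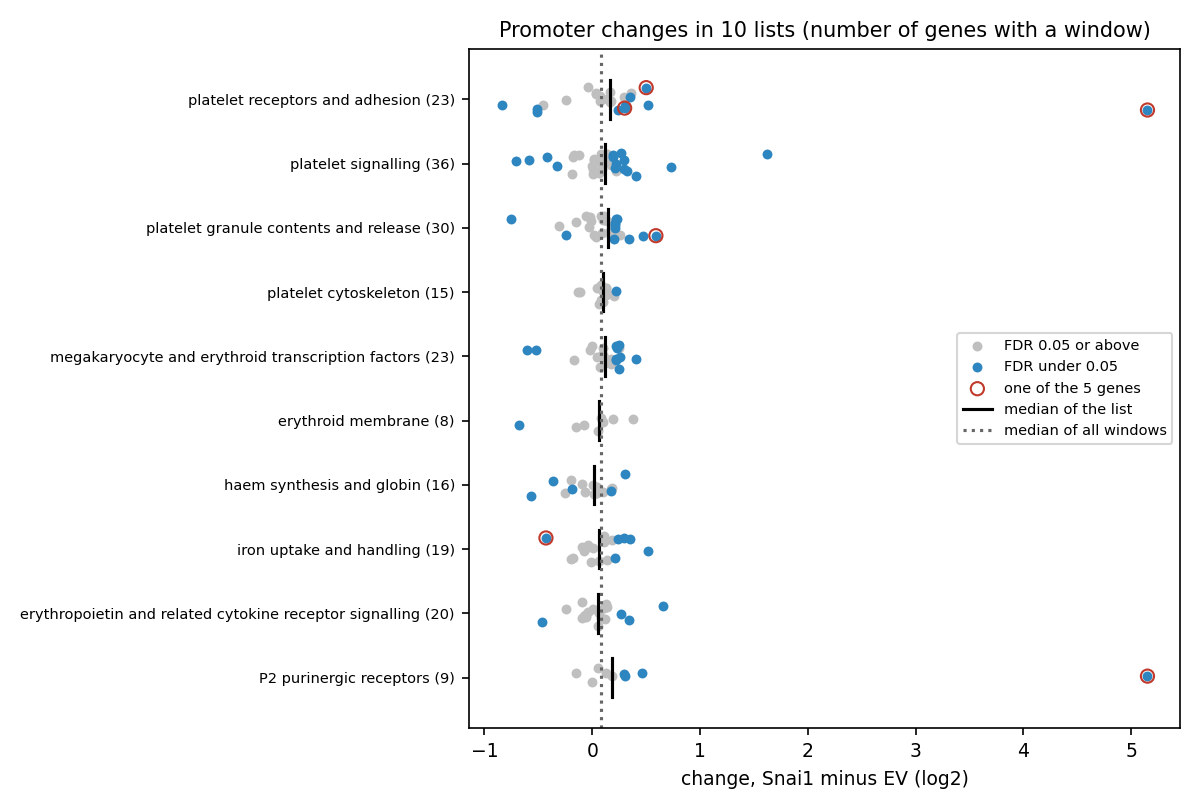
Change (Snai1 minus EV, log2, x axis) of every gene with a window in the 10 lists (rows, number of genes in brackets), coloured by the authors' FDR, with list medians as bars and the 5 genes circled. List medians run from 0.02 to 0.18 around the median of all windows (0.08), and P2ry1 lies far to the right of the rest.

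Of 8 erythroid membrane genes, the authors' deposited table called 0 higher and 1 lower (1 and 1 at an unadjusted p under 0.05). The re-test against neighbours called 0 in either direction (0 higher and 2 lower unadjusted). Over all genes, the authors' deposited table called 19.6% higher and 10.3% lower, and the re-test 5.34% and 8.53%. Of 16 genes of haem synthesis and globin, that table called 2 higher and 3 lower, and the re-test against neighbours 1 and 1. Alad, the second enzyme of haem synthesis, fell by 0.57 (FDR 5.46e-09) and by 0.30 against neighbours (re-test FDR 0.00947). The later enzymes Cpox (-0.36, FDR 0.00531) and Ppox (-0.19, FDR 0.0135) fell in the authors' deposited table, but their signs turned against neighbours (0.03 and 0.06). Abcb10, a mitochondrial transporter gene of haem synthesis, rose by 0.30 (FDR 0.00712) and kept its call against neighbours (0.265, re-test FDR 0.0353). With the median of all windows subtracted Abcb10 was not called (FDR of that re-test 0.0752). No globin gene of the list had a window.

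Of 19 genes of iron uptake and handling, the authors' deposited table called 5 higher and 1, Tfrc, lower (median 0.06), with 19.6% and 10.3% over all genes. The re-test against neighbours called 3 higher and 0 lower (4 and 2 unadjusted), with 5.34% and 8.53% over all genes. Trf, the gene of transferrin, the ligand of the receptor that Tfrc encodes, had 11.07 in Snai1 and 10.55 in EV; it rose by 0.52 (implied SE 0.08, FDR 9.64e-10) and by 0.41 against neighbours (re-test FDR 6.23e-06). Ncoa4, the cargo receptor that delivers ferritin for breakdown, rose by 0.35 (FDR 1.13e-06), and Nfs1, an iron-sulphur cluster enzyme gene, by 0.29 (FDR 0.00118). A window inside Fth1, the ferritin heavy chain gene, rose by 0.24 (authors' FDR 0.00222) but was not called against neighbours (re-test FDR 0.2). The iron regulatory proteins that bind Tfrc mRNA did not pass: Aco1 had a change of -0.18 (FDR 0.255) and a window inside Ireb2 0.01 (FDR 0.916), a sign that turned with either centring. The iron transporter gene Slc11a2 had -0.04 (FDR 0.816), and Steap3 had no window.

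Of 20 genes of erythropoietin and related cytokine receptor signalling, the authors' deposited table called 3 higher and 1 lower (all genes: 19.6% and 10.3%). The re-test against neighbours called 1 and 1 (all genes: 5.34% and 8.53%). A window inside Socs2, a feedback inhibitor gene of cytokine receptors, rose by 0.66 (FDR 3.11e-06), and one inside Sh2b3, whose product restrains cytokine receptor signalling, fell by 0.47 (FDR 4.29e-06). Epor, the erythropoietin receptor gene, rose by 0.34 (9.49 in Snai1, 9.15 in EV, FDR 0.0147) but was not called against neighbours (re-test FDR 0.123). Nor was Epor called with the median of all windows subtracted (FDR of that re-test 0.0925). Socs1 rose by 0.27 (FDR 0.0013) on a stretch of chromosome 16 with a median of 0.38, and its sign turned against it (-0.11). The kinase gene Jak2 had a change of 0.12 (FDR 0.223), which was -0.01 against neighbours.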

How the data were processed

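ATAC-seq was made from 3 groups of 3 HPC7 libraries. The tools were DiffBind, Picard, Bowtie2 and fastp and the build mm10, per the submitters' processing notes; not given in the sources used here were versions, the peak caller, any Tn5 shift, the counting rule and the scaling. The authors' deposited table gave, per the file headers, log2 concentrations and a log2 fold, and the authors' p-value and FDR. That fold ran EV minus Snai1, within 0.01 of the difference of group values, and its sign was reversed. The number of value columns per sample was 0, so no count model, paired fit or test across libraries was run. Of 10274 rows, 3 exact repeats were dropped. From their widths, windows were taken to run from 1000 bp before a start to 1000 bp after it on the plus strand (2001 bp) or 100 bp after it on the minus strand (1101 bp). For 8957 windows a RefSeq gene with its 5' boundary within 1000 bp of that start gave the name; 1276 took the 1 gene spanning the start, and 38 had none. Strand was checked against the RefSeq promoter table for 7220 of the 8957; for the other 1737, Pecam1 among them, that table lists no strand and the strand was taken from the window's width.

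For the implied SE, the size of a change was divided by the normal deviate belonging to its two-sided p; below a change of 0.1, or at p of 0 or 1, the median SE of windows of like accessibility (20 bins) stood in. Intervals are 1.96 implied SE on either side. In the re-tests, changes were centred on all windows or on those within 5 Mb (the gene's own left out), and p-values were adjusted by Benjamini-Hochberg over all windows (Python 3.11.15, SciPy 1.17.1). The implied SE and the centring on neighbours were run on simulated windows with normal errors, whose p-values came from the same normal formula. That run could not show whether the formula holds for the authors' p-values. The members, lists and tests were chosen with earlier results of these data known, and the TATAAA word, the CpG counts and the comparison with windows as open in EV were added after the data were examined. The text names the 5 genes, up to 4 called genes of each list by smallest FDR (or the 2 of smallest p where none is called), a set of partner genes whatever their values, and the 2 likest windows of each gene, without predicted genes; a few of these are not reported here.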

Additional observations from a re-analysis of the deposited data

How the results depend on the processing

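P2ry1, Itga2b, Pecam1 and Ppbp kept their direction and their call with the median of all windows subtracted and with neighbours within 5 Mb subtracted. They also kept them at an FDR of 0.01, which reuses the deposited FDR values. The filter on windows within 100 bp of the annotated boundary could change nothing, because all 5 windows lay at 0 bp. The 5 genes were chosen from this contrast, so a kept call is a description and no support. P2ry1 and Ppbp lay below the log2 concentration of 9 of the filter on closed windows and could not be evaluated under it. Tfrc lost its call against neighbours (-0.03). Over all lists together, the 48 higher genes became 22 with the median of all windows subtracted, 19 against neighbours and 28 at an FDR of 0.01; the 17 lower genes stayed within 1.5 times under these settings (13 to 21). Without windows inside genes, 41 were higher and 13 lower. Of the 42 other named genes, 33 were called by the authors' FDR; 15 of these were not called against neighbours and 7 with the median of all windows subtracted. Signs turned against neighbours for Cpox (0.03), Ppox (0.055), Socs1 (-0.11), Itgb3 (-0.03), Ireb2 (-0.095) and Jak2 (-0.01), and with the median of all windows subtracted for Itgb3 (-0.05) and Ireb2 (-0.07). Where the new centre is the median of a shifted stretch, the change of value is that of its construction; otherwise the cause was not tested. No paired analysis was possible because the table gives 1 value per group and none per library, and for the same reason no replicate could be left out. Precision was lowest for closed windows: the median implied SE was 0.18 in accessibility decile 1 (most closed) and 0.08 in decile 10.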

Other observations

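Of 57 windows with a log2 concentration under 6 in EV, 19 were at least 2 log2 units higher in Snai1, and the median change of the 57 was 0.62; they were chosen by their EV value, which the change contains. With a value under 6 in EV and of at least 9 in Snai1 there were 3 windows. The opposite pattern, under 6 in Snai1 and at least 9 in EV, was found at 6. Over all windows, 25 were at least 2 log2 units higher in Snai1 and 41 at least 2 lower.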
